A study of Homo sapiens with 6 samples.

Results

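The ferritin chains and the partners of the iron chaperone PCBP1 were examined in K562 cells, an erythroid leukemia line, after PCBP1 knockdown (KD). The genes were grouped by role: the ferritin chains FTH1 and FTL, the ferritinophagy receptor NCOA4, the cluster-binding partners GLRX3, BOLA2 and BOLA2B, and the hypusine enzymes DOHH and DHPS. All 8 genes were found among the 62252 genes of the series, and they held 59 of its 251612 annotated transcripts. Cells received lentivirus made from pLKO.1 plasmids carrying a hairpin against luciferase (shCtrl) or against PCBP1 (shPCBP1), with polybrene present overnight. Both groups were then held in puromycin at 3 µg/mL for 4 days, so the control cells carried a vector and drug selection too. Each group had 3 libraries of poly-A RNA, each from a transduced pool and not from a clone, and a single hairpin represented each target. The labels do not say whether replicates were separate transductions, so p-values measure the spread between these libraries, which may be technical.

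Ferritin is a hollow shell of heavy (FTH1) and light (FTL) chains that stores iron as a mineral, and the heavy chain oxidizes the iron that enters. PCBP1 hands iron to ferritin and to the di-iron enzyme DOHH, and with BOLA2 it takes part in assembling the iron-sulfur cluster that GLRX3 and BOLA2 carry together. NCOA4 takes ferritin to the lysosome, where the iron is released, while DHPS and then DOHH build hypusine, a modified lysine, on the translation factor eIF5A. PCBP1 is also an RNA-binding protein with a preference for runs of C, and it takes part in splicing.

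Both ferritin mRNAs carry an iron-responsive element (IRE), a short hairpin in the 5′ UTR to which the iron regulatory proteins bind when iron is low, blocking translation. The hairpins are shown because they are the best known regulatory sequence of this gene group, and the RNA levels measured here do not report on the translation they control. Each is written 5′ to 3′ from GRCh38 as DNA, with the 6 bases of the loop in capitals. The FTH1 element lies at chr11:61967574-61967602 on the minus strand and the FTL element at chr19:48965335-48965363 on the plus strand.
FTH1 IRE: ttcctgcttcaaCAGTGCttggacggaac
FTL IRE: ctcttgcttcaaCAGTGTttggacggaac
The 29-base windows differed at 3 positions, T1C, C4T and C18T, counted from 1 at the 5′ end with the FTH1 base first. The last of these lies in the loop. The search took a loop spelled CAGTGN, on the transcript strand, with 5 paired bases on each side of it and an unpaired C below (G to T pairs allowed), and 39 of 18971 genes (0.206%) with a 5′ UTR long enough held such a hairpin. Among the 8 genes it was found in FTH1 and FTL and in no other. Of the coding and NMD (nonsense-mediated decay) transcripts of FTH1, only FTH1-207, a minor one, lacked it. No match says that these letters were not found, and no more.

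Libraries held between 67066747 and 140522444 estimated counts, and replicates of one group differed by more than sampling noise. PCBP1 RNA in shPCBP1 was 18.1% of its level in shCtrl, and every shPCBP1 library was below every shCtrl library. The erythroid and K562 markers GATA1, GATA2, TAL1, KLF1, HBG1, HBG2, HBE1 and HBZ were all detected, with summed levels of 28810 to 34590 TPM (transcript abundance per length, scaled to a fixed sum per library) in shCtrl and 32974 to 34356 TPM in shPCBP1. The lymphoid markers CD3E, MS4A1 and CD79A summed to between 0.134 and 0.614 TPM over all libraries. Of the K562 markers 2 of 8 passed the test, TAL1 and HBG1, both higher in shPCBP1. Of all genes tested 31.2% passed, and 17.7% passed as higher. The counts of markers that passed were 6 higher without shCtrl replicate 3 and 1 higher without shPCBP1 replicate 1 or with length offsets. With TMM factors (another scaling, by the trimmed mean of M-values) or protein-coding genes only they were 2 higher and 1 lower. The part of the marker changes in the results below was not tested. In bulk RNA, fewer cells of a kind and less RNA per cell cannot be told apart.

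Across the 8 genes, the hypusine enzymes DOHH and DHPS rose and no other gene passed the test. A gene passed at an adjusted p under 0.05 (DESeq2 Wald test on estimated counts summed per gene, Benjamini-Hochberg over all genes tested), whatever its fold change. This gave 2 of 8 genes, both higher in shPCBP1, where 31.2% of all 17095 genes tested passed and 17.7% passed as higher, so the share among the 8 genes was near the background. With TMM factors the split was 2 higher and 1 lower. At the thresholds of the study, which also ask for a read count over 10 and a log2 fold change beyond 1 in either direction, none of the 8 passed, against 1.37% of all genes. The largest absolute log2 fold change among the 8 was 0.37. The median of the 8 log2 fold changes was 0.04, and that of all genes tested was 0.0019. Normalized counts of the groups did not overlap for 4 of 8 genes (FTL, NCOA4, DOHH and DHPS), where 44.2% of all genes tested had groups that did not overlap.

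**Figure D1:**
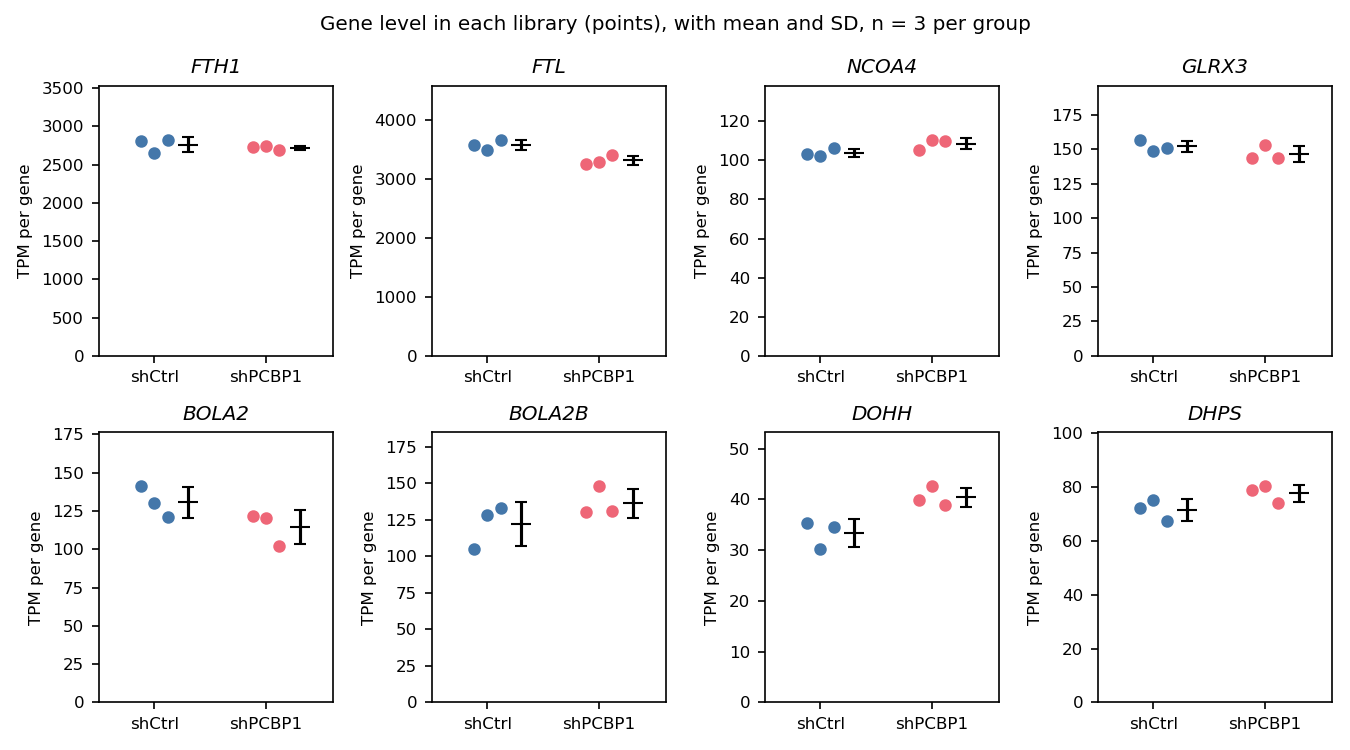
Gene level in TPM (y axes, linear and starting at 0) of the 8 genes in each library; points are libraries, and the bars to their right are the mean and SD (n = 3). FTL sits lower and DOHH higher in all 3 shPCBP1 libraries, and the other genes have overlapping points on this scale.

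The levels of the 8 genes spanned 2 orders of magnitude on the TPM scale, which is per transcript length. FTL was the most abundant at 3580 ± 81.4 TPM in shCtrl (SD, n = 3), followed by FTH1 at 2759 ± 98.3 TPM, and their libraries did not overlap. GLRX3 (152 ± 3.97 TPM), BOLA2 (131 ± 10.1 TPM), BOLA2B (122 ± 14.8 TPM) and NCOA4 (104 ± 2.08 TPM) formed a middle group. Within it BOLA2 and BOLA2B overlapped, as did BOLA2B and NCOA4, so these neighbours cannot be ordered beyond their spread. DHPS (71.5 ± 3.94 TPM) and DOHH (33.4 ± 2.74 TPM) were lowest and did not overlap with any other gene. In shPCBP1 the order of FTL, FTH1, DHPS and DOHH was the same, while in the middle group GLRX3 overlapped with BOLA2B and NCOA4 overlapped with BOLA2.

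FTL, the light chain of ferritin, lies at chr19:48965309-48966879 on the plus strand of GRCh38. It had 184670, 176140 and 187580 normalized counts in the shCtrl libraries and 173820, 171650 and 175070 in the shPCBP1 ones, each in replicate order. All shPCBP1 libraries were below all shCtrl libraries, by a small margin next to the level itself. The log2 fold change was -0.08 (SE 0.0320), a fold of 0.949 with a 95% interval of 0.909 to 0.991, and the gene did not pass (DESeq2 adjusted p 0.0578). The call sat at the threshold. FTL passed with edgeR's quasi-likelihood test (adjusted p 0.0476), with TMM factors in DESeq2 (0.0119), among genes with a mean count of at least 50 (0.0235) and among protein-coding genes only (0.00305), and the log2 fold change was -0.10 to -0.09 in these fits. It also passed in DESeq2 without shCtrl replicate 2, at an adjusted p of 0.000705. In the other 5 fits that left out a library it did not pass (adjusted p up to 0.215), nor with length offsets (0.123).

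FTH1, the heavy chain, lies at chr11:61959718-61967634 on the minus strand. Its normalized counts were 122190, 111540 and 123640 in shCtrl and 123850, 120940 and 117180 in shPCBP1. The groups overlapped, and shCtrl replicate 2 was the lowest of all 6 libraries. The fold was 1.01 with a 95% interval of 0.959 to 1.07 (log2 fold change 0.02, SE 0.0402, DESeq2 adjusted p 0.789). The sign of this small value turned among protein-coding genes only and when shCtrl replicate 2 or shPCBP1 replicate 1 was left out.

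The ratio of heavy to light chain RNA was formed within each library, where scaling cancels. It was 0.785, 0.756 and 0.770 in shCtrl and 0.838, 0.835 and 0.788 in shPCBP1, on TPM. The ratio was higher in all 3 shPCBP1 libraries, with means of 0.770 ± 0.0145 and 0.821 ± 0.0279 (SD, n = 3), a difference of 6.47% from the mean log2 ratios. The exact two-sided permutation p was 0.1, which is the smallest that 3 against 3 libraries can give. FTH1 and FTL together took 0.634% ± 0.0175 of all TPM in shCtrl and 0.604% ± 0.00565 in shPCBP1 (SD, n = 3), again without overlap between the groups.

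FTL has a single annotated transcript, FTL-201, and its level on the log2(TPM + 0.1) scale differed by -0.11 (limma adjusted p 0.0639). FTH1 has 12 transcripts, of which FTH1-212, FTH1-206 and FTH1-201 held most of the gene's TPM. FTH1-212 had 1287, 1222 and 1220 TPM in shCtrl and 1222, 1223 and 1172 TPM in shPCBP1. It averaged 45.1% ± 1.59 of FTH1 TPM in shCtrl and 44.3% ± 0.621 in shPCBP1 (SD, n = 3). The FTH1-206 share was 34.9% ± 0.490 and 35.6% ± 0.616 in the same order, and that of FTH1-201 was 16.6% ± 1.58 and 17.1% ± 0.430. None of these transcript levels or shares passed, with limma adjusted p-values of 0.430 to 0.890 for the levels. In the files FTH1-212 is 825 bases long, while its entry in the annotation used here has 830, so the quantified sequence was not exactly that entry. FTH1-210, a minor transcript annotated as subject to NMD, averaged 10.4 TPM in shCtrl and 14.3 TPM in shPCBP1 without overlap, but did not pass (log2 difference 0.47, limma adjusted p 0.110).

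Reads of FTH1 could be shared with other genes. Of the 31-base words in its transcripts 63.6% also occur in transcripts of other genes, 54.5% in BEST1, which overlaps FTH1 on the opposite strand, and others mostly in FTH1 pseudogenes. BEST1 held 0.219% as many counts as FTH1, and the 11 FTH1 pseudogenes that each contain at least 5% of its words together held 0.0770%. FTL shared 33.5% of its words with other genes, and the 2 pseudogenes that each contain at least 5% of them held 0.00241% as many counts as FTL.

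NCOA4, the receptor that binds the ferritin heavy chain and brings ferritin to autophagosomes, lies at chr10:46005088-46030623 on the minus strand. It had 27168, 26153 and 28144 normalized counts in shCtrl and 28149, 28812 and 28191 in shPCBP1. The shPCBP1 libraries were all higher, replicate 1 by only a few counts, and on the TPM scale the groups overlapped. The log2 fold change was 0.06 (SE 0.0364) with a 95% interval of -0.01 to 0.13, and the gene did not pass (DESeq2 adjusted p 0.184). It passed in DESeq2 when shCtrl replicate 3 was left out, at an adjusted p of 0.0381. Its main transcript NCOA4-204 averaged 81.7 ± 3.85 TPM in shCtrl and 84.7 ± 4.02 TPM in shPCBP1 (SD, n = 3). The second transcript, NCOA4-207, averaged 19.8 ± 1.93 and 20.9 ± 4.48 TPM in the same order, and neither passed. NCOA4 shared 13.5% of its 31-base words with other genes. ENSG00000289092, a long noncoding RNA on the opposite strand, rose by 0.54 on the log2 scale (DESeq2 adjusted p 0.0301) from a mean of 2.39 to one of 3.50 TPM, and its part in the NCOA4 values was not tested.

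Other genes of ferritinophagy, from a list of the autophagy machinery and lysosomal proteins, were divided. Of 28 genes with an adjusted p, 7 were higher and 7 were lower in shPCBP1, where 17.7% of all genes tested passed as higher and 13.5% as lower. The median log2 fold change was 0.03. Among protein-coding genes only the split was 6 higher and 10 lower, and without shCtrl replicate 3 it was 8 and 3. Among the genes that rose were ATG14 (log2 fold change 0.39, DESeq2 adjusted p 0.000734), a subunit of the lipid kinase complex that starts autophagosomes, and ATG9A (0.33, adjusted p 7.81e-10), a scramblase that seeds them. ATG16L1 (0.32, adjusted p 7.88e-06), which directs the attachment of LC3 to membranes, also rose in DESeq2 but did not pass with transcript length offsets (adjusted p 0.103). The transcription factor TFEB, which drives lysosomal genes, fell by 0.61 on the log2 scale (DESeq2 adjusted p 0.00396), and without shCtrl replicate 1 it did not pass (0.0543). The kinase ULK1 fell by 0.21 (DESeq2 adjusted p 0.0110) and the lysosomal protease CTSD by 0.16 (0.00891), and each kept its call in only 3 of 6 fits that left out a library. FTMT, the mitochondrial ferritin, had no count in any library.

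**Figure D2:**
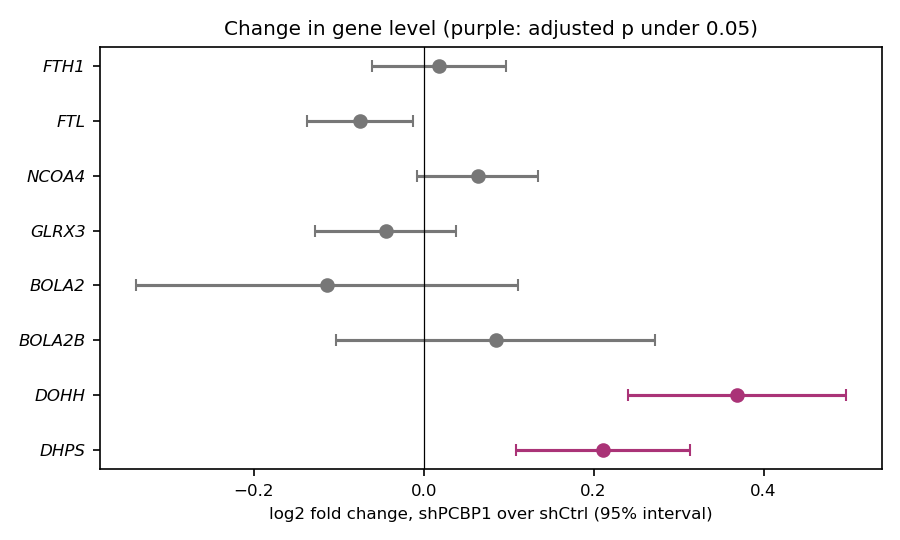
DESeq2 log2 fold change of shPCBP1 over shCtrl (x axis, linear) for the 8 genes, with 95% intervals; purple marks an adjusted p under 0.05. DOHH and DHPS lie to the right of 0, the FTL interval lies just below 0, and the intervals of BOLA2 and BOLA2B are the widest.

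GLRX3, a glutaredoxin that holds iron-sulfur clusters together with BOLA2, lies at chr10:130136391-130184521 on the plus strand. Its normalized counts were 11892, 11080 and 11399 in shCtrl and 11267, 11259 and 10795 in shPCBP1. The groups overlapped, and the fold of 0.969 had a 95% interval of 0.915 to 1.03 (log2 fold change -0.04, SE 0.0422, DESeq2 adjusted p 0.466). The coding transcript GLRX3-201 made up 77.9% ± 0.985 of GLRX3 TPM in shCtrl and 77.9% ± 1.21 in shPCBP1 (SD, n = 3). GLRX3-205, with no defined coding sequence, lay between 16.7% and 17.5% in shCtrl and between 15.8% and 19.2% in shPCBP1. It is only 317 bases long, against 1318 for GLRX3-201, and TPM is per transcript length. Its estimated counts were few, on average 163 in shCtrl and 106 in shPCBP1, against 12889 and 7986 for GLRX3-201. The share of GLRX3-205 in TPM is thus far above its share of the counts.

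BOLA2 (chr16:29453590-29454351) and BOLA2B (chr16:30192932-30194306), both on the minus strand, encode the same BolA protein from near-identical copies. Every 31-base word of BOLA2 also occurs in another gene, and 95.1% of those of BOLA2B do, so how counts were split between them is uncertain. BOLA2 had 1503, 1323 and 1158 normalized counts in shCtrl and 1329, 1308 and 1039 in shPCBP1, while BOLA2B had 1145, 1292 and 1431 in shCtrl and 1394, 1391 and 1316 in shPCBP1. In shCtrl the library with the most BOLA2 had the least BOLA2B, and the reverse. Neither passed in DESeq2, with a log2 fold change of -0.11 (SE 0.115, adjusted p 0.502) for BOLA2 and of 0.08 (SE 0.0959, adjusted p 0.561) for BOLA2B.

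Summing the copies removed most of the spread between control libraries. BOLA2 plus BOLA2B had 2648, 2615 and 2589 normalized counts in shCtrl and 2723, 2699 and 2356 in shPCBP1, with shPCBP1 replicate 3 the lowest. The fold of the sum was 0.991 with a 95% interval of 0.902 to 1.09 (DESeq2 adjusted p 0.923). BOLA2-SMG1P6, a readthrough gene on the same strand, contains 93.5% of the words of BOLA2 and had more counts than both copies together. With it added, the log2 fold change was 0.06 (DESeq2 adjusted p 0.325). The 2 sums were chosen after the values were seen. The planned sum over every gene that shares at least 5% of the words took in the SLX1 genes as well and was lower in shPCBP1 (log2 fold change -0.14, DESeq2 adjusted p 0.00173), and one of its genes, SLX1B, fell by 0.93 on the log2 scale by itself (SE 0.0761, adjusted p 5.02e-32).

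The ratio of BOLA2 plus BOLA2B to GLRX3 was 1.57, 1.73 and 1.68 in shCtrl and 1.76, 1.75 and 1.62 in shPCBP1, on TPM. The groups overlapped (exact two-sided permutation p 0.5, n = 3 per group).

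The other glutaredoxins, the BolA proteins and the cytosolic iron-sulfur assembly (CIA) factors were divided. Of 13 genes with an adjusted p, 3 were higher and 2 were lower in shPCBP1, a share of 38.5% against 31.2% of all genes tested, with a median log2 fold change of 0.07. NUBP1, part of the scaffold on which cytosolic clusters are built, rose (log2 fold change 0.24, DESeq2 adjusted p 0.00332). NDOR1, the reductase that feeds electrons to the same pathway, fell by 0.16 (DESeq2 adjusted p 0.00167), and an overlapping gene on the same strand held 16.5% as many counts. NDOR1 did not pass with length offsets (adjusted p 0.115). The mitochondrial factors BOLA3 (0.16, adjusted p 0.0329) and GLRX5 (0.15, adjusted p 0.0164) and the glutaredoxin GLRX (-0.36, adjusted p 0.0456) passed in DESeq2 but not in edgeR, where their adjusted p-values were 0.0871, 0.0637 and 0.0765.

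DOHH, the di-iron hydroxylase that completes hypusine and a known client of PCBP1, had the largest change of the 8 genes. It lies at chr19:3490821-3500674 on the minus strand and shares no 31-base word with another gene. Its normalized counts were 4339, 3666 and 4325 in shCtrl and 5319, 5490 and 5128 in shPCBP1. All shPCBP1 libraries were above all shCtrl libraries, and shCtrl replicate 2 was the lowest. DOHH rose 1.29-fold with a 95% interval of 1.18 to 1.41 (log2 fold change 0.37, SE 0.0657, DESeq2 adjusted p 3.08e-07). It kept its call in all 9 alternative fits, with adjusted p-values of 2.20e-07 to 0.00283, and in all 6 that left out a library. On the TPM scale the difference was smaller, 33.4 ± 2.74 against 40.5 ± 1.88 TPM (SD, n = 3), still without overlap. The mean effective length of its transcripts was 1444 ± 12.4 bases in shCtrl and 1527 ± 20.2 in shPCBP1, and with length offsets the log2 fold change was 0.29.

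A single coding transcript, DOHH-201, held 93.7% ± 0.717 of DOHH TPM in shCtrl and 95.2% ± 1.43 in shPCBP1 (SD, n = 3). It had 32.9, 28.4 and 32.6 TPM in shCtrl and 38.6, 40.3 and 36.6 TPM in shPCBP1. The levels did not overlap, but at the level of transcripts the difference did not pass (log2 difference 0.30, SE 0.0730, limma adjusted p 0.0756). A p that misses the threshold does not show that the transcript's levels were alike. The transcript passed with DESeq2 on transcript counts (adjusted p 0.000387) and in limma among transcripts with a mean TPM of at least 5 (adjusted p 0.0376).

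DHPS, which catalyses the first step of hypusine synthesis, lies at chr19:12675717-12681880 on the minus strand. It had 5371, 5257 and 5061 normalized counts in shCtrl and 6268, 6174 and 5706 in shPCBP1. The groups did not overlap. DHPS rose 1.16-fold with a 95% interval of 1.08 to 1.24 (log2 fold change 0.21, SE 0.0525, DESeq2 adjusted p 0.000428). The call was lost with transcript length offsets (log2 fold change 0.14, adjusted p 0.105), and the TPM of the gene overlapped between the groups, with 71.5 ± 3.94 in shCtrl and 77.7 ± 3.27 in shPCBP1 (SD, n = 3). The mean effective length of DHPS transcripts was 860.1 ± 15.8 bases in shCtrl and 904.6 ± 3.48 in shPCBP1.

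The transcripts of DHPS moved in opposite directions. DHPS-201, the most abundant coding transcript, had 37.6, 33.9 and 33.7 TPM in shCtrl and 48.6, 48.8 and 45.1 TPM in shPCBP1. DHPS-221, annotated as an NMD target, had 7.90, 9.09 and 10.0 TPM in shCtrl and 4.32, 4.66 and 6.03 TPM in shPCBP1. Neither pair of groups overlapped. DHPS-201 rose by a log2 difference of 0.44 (SE 0.0618, limma adjusted p 0.0208) and DHPS-221 fell by 0.84 on the log2 scale (SE 0.159, limma adjusted p 0.0413), both on log2(TPM + 0.1). These were the 2 transcripts that passed of 37 members' transcripts tested, where 4.87% of all 44441 transcripts tested passed, 2.47% as higher and 2.4% as lower. Both calls were near the threshold. Neither held without the filter on low TPM (limma adjusted p 0.0610 and 0.113), and of 6 fits that left out a library DHPS-201 passed in 2 (without shCtrl replicate 1 or shPCBP1 replicate 3) and DHPS-221 in 1 (without shPCBP1 replicate 3). With DESeq2 on transcript counts the adjusted p-values were 3.05e-08 and 0.000141.

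**Figure D3:**
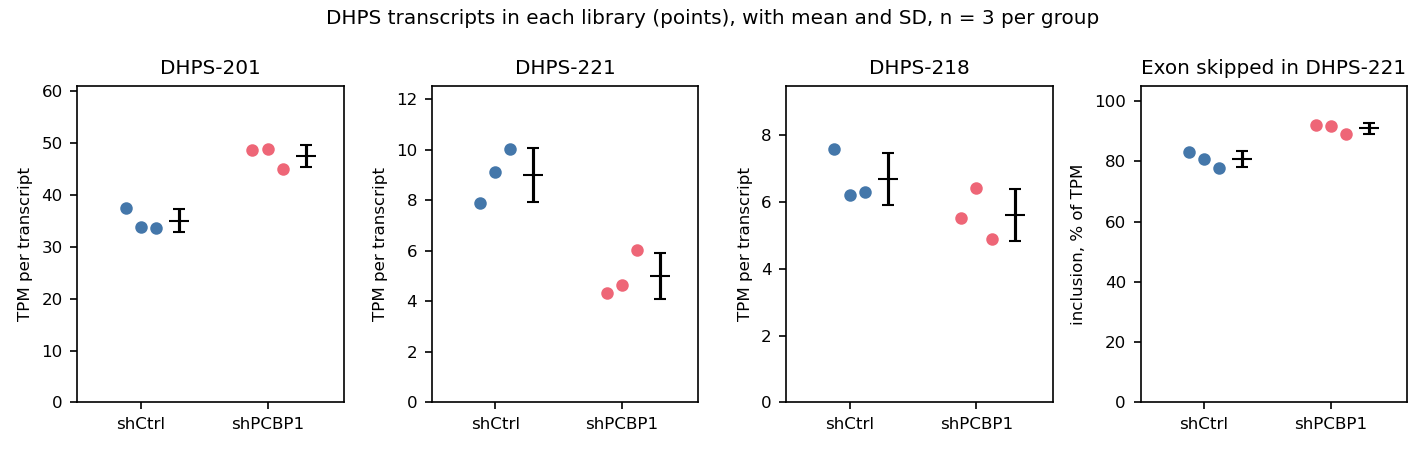
TPM of DHPS-201, DHPS-221 and DHPS-218 and the inclusion of the 104-base exon in percent (y axes, linear and starting at 0) in each library; points are libraries, and the bars are the mean and SD (n = 3). DHPS-201 and exon inclusion sit higher and DHPS-221 lower in all 3 shPCBP1 libraries, and DHPS-218, a retained-intron transcript, overlaps.

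As a share of DHPS TPM, coding transcripts took 57.2%, 54.9% and 55.4% in shCtrl and 68.9%, 69.2% and 68.0% in shPCBP1. The groups did not overlap. NMD transcripts took 15.2% ± 2.19 in shCtrl and 9.88% ± 2.35 in shPCBP1 (SD, n = 3), and retained-intron transcripts 29.0% ± 2.03 and 21.4% ± 1.83. DHPS-201 alone had a share of 49.1% ± 3.63 in shCtrl and 61.2% ± 0.481 in shPCBP1, and DHPS-221 one of 12.6% ± 2.02 and 6.48% ± 1.46. In the test of shares neither passed, with limma adjusted p-values of 0.0877 and 0.0959. Under other settings that kept every library, these ran from 0.0669 to 0.922 for DHPS-201 and from 0.0689 to 0.147 for DHPS-221.

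DHPS-221 skips an internal exon of 104 bases at chr19:12677108-12677211, whose length is not a multiple of 3. This exon was singled out after the values were seen, so its inclusion is given as a description with no test. The TPM of the 4 transcripts with the exon, as a percent of these plus DHPS-221, was 83.2%, 80.9% and 77.9% in shCtrl and 92.1%, 91.6% and 89.0% in shPCBP1. Inclusion was higher in all shPCBP1 libraries, by 10.2 percentage points on average. All other DHPS transcripts were left out of this percent, and they held 24.9 ± 2.80 TPM in shCtrl and 22.7 ± 2.98 TPM in shPCBP1 (SD, n = 3). Among them are retained-intron transcripts such as DHPS-209, whose span covers the exon. These are transcript estimates, since junction reads were not used here. The 30 bases of intron just before the exon, at chr19:12677212-12677241 on the minus strand of GRCh38, are shown because PCBP1 prefers runs of C. They are written 5′ to 3′, with the run of C next to the splice site in capitals.
DHPS intron end: caaggcctgacttcggcgctcttCCCCCag
The window is 43.3% C and holds the letters CCC at 3 overlapping places on the transcript strand. Windows of the same length before 189363 internal exons had a median of 23.3% C, 84.4% of them had less C than this one, and 39.9% held CCC at least once. A match of this kind is a description of the sequence and not a binding site.

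The DHPS locus overlaps WDR83 on the opposite strand, which fell by 0.36 on the log2 scale (DESeq2 adjusted p 0.000935), and a readthrough gene on the same strand. The readthrough gene, ENSG00000285589, contains 33.1% of the words of DHPS and held 21.2% as many counts. It did not pass (log2 fold change 0.12, DESeq2 adjusted p 0.375). WDR83 ends at chr19:12675832, just inside DHPS, and contains less than 5% of the words of DHPS. Whether the quantification used strand is not given in the sources used here. Reads from the stretch that DHPS and WDR83 share may thus not have been told apart, and their part in the DHPS result was not tested.

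The ratio of DOHH to DHPS was 0.491, 0.403 and 0.514 in shCtrl and 0.506, 0.530 and 0.526 in shPCBP1, on TPM. The groups overlapped (exact two-sided permutation p 0.2, n = 3 per group). With only coding transcripts counted the log2 difference turned from 0.16 to -0.14 (exact p 0.3).

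**Figure D4:**
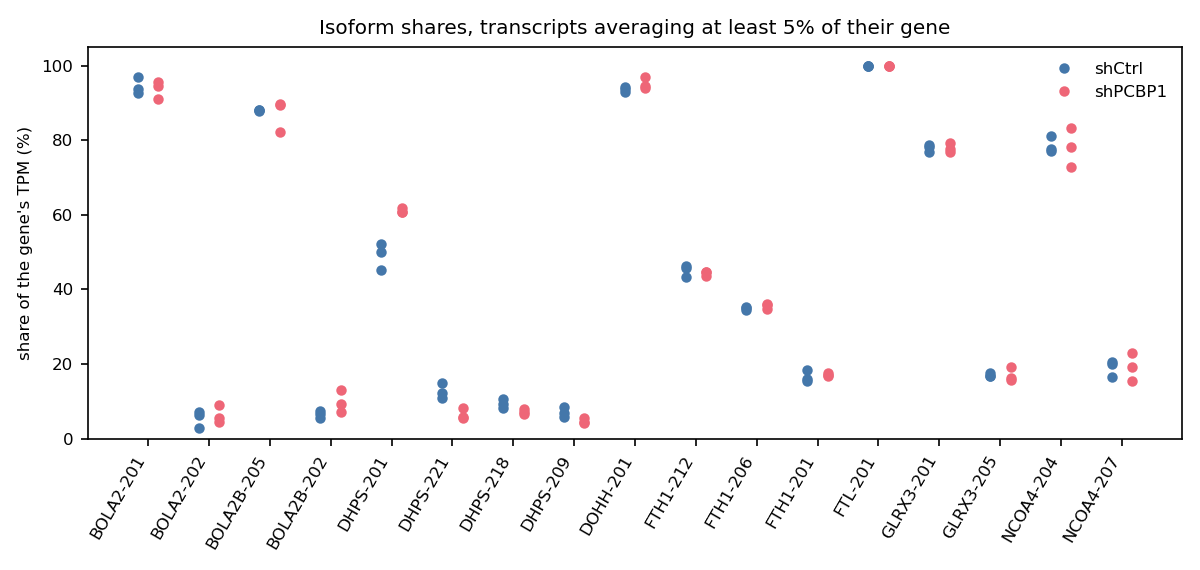
Share of the gene's TPM in percent (y axis, linear) for the 17 transcripts that averaged at least 5% of their gene, in each library; blue points are shCtrl and red points shPCBP1 (n = 3 each). The shares of the 4 DHPS transcripts separate between the groups, and those of the other genes overlap.

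Over the 8 genes, 37 of 59 transcripts had a mean TPM of at least 1, and 17 averaged at least 5% of their gene. Of the 16 shares that could be tested none passed in limma, where 1.12% of the 30340 shares tested in all genes passed. An unadjusted limma p under 0.05 was reached by 4, all of DHPS. Shares of 1 gene depend on each other, and the share of all genes under that cut is not given here. A p that misses the threshold does not show that isoform use was alike. DHPS-218 and DHPS-209, which retain introns, had lower shares in all shPCBP1 libraries, by 2.16 and 2.23 percentage points in the means, but their levels in TPM overlapped. The coding transcripts of BOLA2 and BOLA2B, BOLA2-201 and BOLA2B-205, made up 94.5% ± 2.28 and 88.0% ± 0.115 of their genes in shCtrl and 93.7% ± 2.33 and 87.1% ± 4.22 in shPCBP1 (SD, n = 3). The minor transcript BOLA2-202 averaged 5.51% in shCtrl and 6.27% in shPCBP1, and BOLA2B-202, which retains an intron, 6.47% and 9.86%.

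Genes of the hypusine and polyamine pathway were counted beside DOHH and DHPS. Spermidine, a polyamine, donates the group that DHPS places on eIF5A. Of 13 genes 6 were higher and 1 was lower in shPCBP1, a share of 53.8%, with a median log2 fold change of 0.09. Of all genes tested 31.2% passed, and 56.7% of those were higher. EIF5A, the substrate of both enzymes, had a mean normalized count of 63687 ± 3077 in shCtrl and of 73141 ± 4512 in shPCBP1 (SD, n = 3) and rose by 0.20 on the log2 scale (SE 0.0454, DESeq2 adjusted p 9.59e-05). The spermidine synthase SRM rose by a log2 fold change of 0.22 (DESeq2 adjusted p 0.000121) and the spermine oxidase SMOX by 0.40 (adjusted p 3.18e-05). SAT1, which acetylates polyamines for export and breakdown, fell by 0.32 on the log2 scale (DESeq2 adjusted p 0.000117). ODC1 and AMD1, which make the precursors, and OAZ1, which inhibits ODC1, were the other genes that rose. With edgeR 4 genes were higher and 1 was lower.

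**Figure D5:**
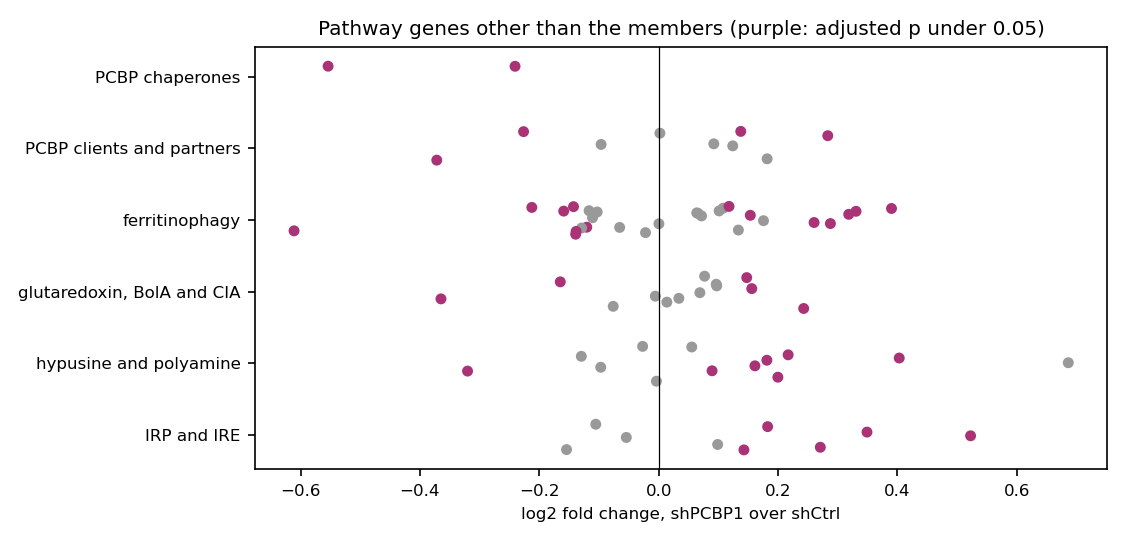
DESeq2 log2 fold change of shPCBP1 over shCtrl (x axis, linear) for the pathway genes other than the 8, 1 point per gene with an adjusted p, by list (y axis); purple marks an adjusted p under 0.05. PCBP1 itself (-2.47) lies outside the axis and is not drawn. The genes that passed in the IRP and IRE list all lie to the right of 0, and those of ferritinophagy lie on both sides.

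Genes of the iron regulatory protein (IRP) system and of other IRE-containing mRNAs were followed because the IRPs also bind the ferritin mRNAs. The outcome of binding differs between mRNAs. The authors describe it, at low iron, as raising TFRC translation and lowering that of FTH1. Of 9 genes 5 were higher and none was lower in shPCBP1, a share of 55.6%, with a median log2 fold change of 0.14, against 31.2% of all genes tested that passed and 17.7% that passed as higher. With length offsets 4 were higher and 1 was lower. With edgeR, TMM factors, no independent filtering, protein-coding genes only or a replicate block 4 were higher and none was lower. TFRC, the transferrin receptor, rose by 0.35 on the log2 scale (DESeq2 adjusted p 8.01e-13). Neither ferritin chain passed, but RNA levels do not report on the translation that the ferritin IREs control. EPAS1, a hypoxia-inducible factor with an IRE in its 5′ UTR, rose (log2 fold change 0.52, DESeq2 adjusted p 5.42e-11), but with length offsets its log2 fold change was 0.07 (adjusted p 0.754). CDC14A, a phosphatase, rose by 0.27 (DESeq2 adjusted p 2.40e-05). ACO1, one of the IRPs, also rose but was nearest the threshold (DESeq2 adjusted p 0.0332), and CDC42BPA rose as well (5.27e-06).

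Among the other PCBP genes, the log2 fold changes of PCBP2 (-0.24, DESeq2 adjusted p 2.47e-12) and PCBP4 (-0.55, adjusted p 0.000104) were both negative and passed. The PCBP4 value is uncertain, because ABHD14B, an overlapping gene read in the same direction, had a log2 fold change of -0.72. PCBP3 had 73 estimated counts over all libraries and no adjusted p. A list of other possible clients and partners of the PCBPs was divided, with 2 of 9 genes higher and 2 lower in shPCBP1, a share of 44.4%. Whether each gene on it, such as P4HA1 and P4HA2, encodes a PCBP client was not tested. Of all genes tested 31.2% passed, 17.7% as higher and 13.5% as lower. The oxygen sensor HIF1AN (log2 fold change 0.28, DESeq2 adjusted p 4.40e-07) and the biliverdin reductase BLVRA (0.14, adjusted p 0.0392) rose, and the collagen prolyl hydroxylases P4HA1 and P4HA2 fell by 0.37 (adjusted p 9.23e-08) and 0.23 (adjusted p 0.00301). HIF1AN did not pass with length offsets (adjusted p 0.0806), nor BLVRA in edgeR (0.0999). HMOX1, the heme oxygenase that frees heme iron, had 3 estimated counts over all libraries, too few for a test.

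Over these lists 38 of 75 genes with an adjusted p passed, 23 higher and 15 lower in shPCBP1, where 31.2% of all genes tested passed. The 38 and the 15 include PCBP1 itself, the target of the hairpin, whose fall was set by the design. With protein-coding genes only the split was 18 higher and 19 lower. Apart from PCBP1 no gene of the lists passed the fold threshold of the study as well.

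For 3 of the 8 genes, the genes with the most similar profile were sought among 14180 other genes. Likeness was the smallest root mean square difference of log2 normalized counts over the 6 libraries. Each gene was first centred on its shCtrl mean, so levels themselves were not compared. For FTH1 these were TCP1 (0.0123), ATP1B3 (0.0128) and TCTN3 (0.0138). For FTL they were the ribosomal protein gene RPS10 (0.00782), CAMKK2 (0.0129) and NBAS (0.0135), and for NCOA4 they were PFDN1 (0.00739), TPD52L2 (0.0102) and AASDHPPT (0.0104). These genes were picked by likeness, and with 6 libraries from the same 2 groups the match describes these libraries only.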

How the data were processed

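RNA was measured in 6 K562 libraries, 3 per group, grouped by the sample labels. The authors quantified paired reads with Salmon (version 1.10.2). The estimated counts they deposited carry no normalization, while Salmon had already divided the deposited TPM values by effective transcript length. The annotation release of the Salmon index is not given in the sources used here. Of 252045 transcripts 251612 matched GENCODE release 44 (GRCh38) by identifier without version, and the rest (0.136% to 0.147% of counts) were left out.

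Estimated counts were summed per gene, rounded and tested with DESeq2 1.42.0 (Wald test, two-sided, median-of-ratios factors, summed count of at least 10, unshrunken). Transcripts were tested with limma 3.58.1 (trend) on log2(TPM + 0.1) at a mean TPM of at least 1, and shares as the log2 ratio to the gene's other transcripts at a mean share of 5% to 95% and a gene TPM of at least 5. Benjamini-Hochberg adjustment covered all features tested. Log2 differences of TPM understate the change of low transcripts. Ratios used exact permutation tests over libraries. Effective lengths entered the length offsets and the mean lengths. Words of 31 bases were compared between annotated transcripts. Scripts were tested on simulated data, where the limma tests of transcripts and shares recovered few of the changed features. Versions were R 4.3.3, edgeR 4.0.16 and Python 3.11.15.

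The 8 genes and the pathway lists were chosen with earlier results of these data known. Beside the 8 genes, their transcripts at 5% of the gene or more and the genes sharing at least 5% of their words, up to 3 genes per list and direction are named by size of change among those that passed with groups that did not overlap. Other list members are named where a count needed it, after their values were seen. Alternatives covered edgeR, TMM factors, length offsets, other filters, pseudocounts, annotation subsets, summed copies, a replicate block and leaving out each library. Protein sequences were not used here, and 2 planned cell type markers are not reported here.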

Additional observations from a re-analysis of the deposited data

How the results depend on the processing

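Of the 500 values recomputed for named genes and transcripts under other settings that kept every library, 462 kept direction and call, 25 lost their call, 8 gained one and 5 changed sign, none of them a value that had passed. The signs that changed were those of FTH1 with protein-coding genes only (-0.0036), BOLA2 summed with BOLA2B and BOLA2-SMG1P6 (0.061), GLRX3-205 with DESeq2 on transcript counts (0.0038), the GLRX3-205 share with a pseudocount of 1 TPM (0.0014) and the BOLA2B-205 share on estimated counts (0.60). The ratio of BOLA2 plus BOLA2B to GLRX3 turned with copies summed (log2 difference -0.027, exact p 0.7) and that of DOHH to DHPS with coding transcripts only (-0.14, exact p 0.3). The cause was not tested. Of the 8 genes 1 passed with length offsets. With edgeR, TMM factors, a mean count of at least 50 or protein-coding genes only 3 passed, FTL being the one added. With copies summed 3 also passed, but the one added was BOLA2 pooled with BOLA2B, BOLA2-SMG1P6 and the SLX1 genes. That setting thus does not count the same 8 genes. Of their transcripts 4 passed with a mean TPM of at least 5, 4 with DESeq2 on transcript counts and 0 without a TPM filter.

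Replicate numbers did not pair the samples (correlations of same-numbered deviations 0.0113, 0.00518 and -0.0292). With the replicate number as a block in the model, DOHH and DHPS passed, 33 list genes passed instead of 38, and 0 transcripts passed (limma adjusted p 0.0787 for DHPS-201 and 0.0792 for DHPS-221).

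Leaving out each library gave 2 to 3 of the 8 genes, 28 to 36 list genes, 0 to 2 transcripts and 0 shares. Log2 differences then ranged from 0.08 to 0.12 for the FTH1 to FTL ratio, 0.001 to 0.08 for that of BOLA2 plus BOLA2B to GLRX3 and 0.05 to 0.23 for that of DOHH to DHPS. Signs turned within these ranges for FTH1 (-0.026 to 0.047), the levels of NCOA4-207 (-0.090 to 0.22), GLRX3-205 (-0.18 to 0.011), FTH1-206 (-0.019 to 0.032), FTH1-201 (-0.048 to 0.12) and BOLA2-202 (-0.31 to 0.22), and the shares of NCOA4-207 (-0.18 to 0.17), NCOA4-204 (-0.25 to 0.19), GLRX3-201 (-0.056 to 0.045), GLRX3-205 (-0.11 to 0.062), BOLA2-202 (-0.18 to 0.50), BOLA2-201 (-0.50 to 0.18) and BOLA2B-205 (-0.23 to 0.22). Where a fit left 2 libraries in a group, the spread was pooled over both groups.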

Other observations

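SLX1B, a subunit of a structure-specific nuclease that cuts branched DNA, fell by 0.93 on the log2 scale (SE 0.0761, DESeq2 adjusted p 5.02e-32). Its near-identical copy SLX1A, which overlaps BOLA2B, had a log2 fold change of -0.27 (SE 0.151, adjusted p 0.174) and the readthrough gene SLX1A-SULT1A3 one of 0.08 (SE 0.0769, adjusted p 0.471). These genes are read from the strand opposite to BOLA2B and share 27.7% to 28.9% of its 31-base words, so the split of counts between them is uncertain. Counting only the DHPS transcripts that hold the 104-base exon, an alternative added after the data were seen, gave a DESeq2 log2 fold change of 0.45. The exon was picked from these same libraries, so the value is a description and no p is given for it. Most of the TPM and estimated counts of these transcripts belonged to DHPS-201, so the value largely repeats the rise of DHPS-201 and is not separate evidence.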
